A study of Homo sapiens with 2 samples.

Results

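GNL3L, GNL3, GNL2, GNL1 and LSG1 encode human GTPases of the YlqF type, in which the motifs that bind the nucleotide are arranged in a circularly permuted order along the protein. The group was chosen by the ratio of a single GNL3L probe, the most negative in a comparison of prostate epithelial cells with and without a synthetic precursor of the microRNA miR-424, and the other genes were added as its relatives. The ratios of GNL3L below are therefore a description of what led to the choice. On the arrays the 5 genes were represented by 7 probes in 8 spots, of 42405 probes in 58717 spots and of 19740 genes named in all, and each of the 7 passed the filter on dim and outlying spots: its signal exceeded the local background clearly in Cy3 and Cy5 on each array.

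The cells were RWPE-1, a noncancerous prostate epithelial cell line immortalized with papillomavirus genes, grown in keratinocyte serum-free medium, and they received Pre-miR-424 or Negative control #1 at 30 nM by transfection. Both RNAs were hybridised together to 2 Agilent arrays. On the normal array the pre-miR-424 RNA carried Cy5 and the control RNA Cy3, and on the dye swap the dyes were exchanged. The arrays are labelled as technical replicates and lay on the same slide, so they counted as 1 replicate, which allows no p-value. The SD given beside a mean is that between the arrays (n = 2 arrays) and covers labelling and hybridisation only. It includes any dye effect of the probe, which cancels in the mean, so it is not the uncertainty of that mean. The labels give neither the time after transfection nor the number of cultures.

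The known work of these proteins lies in ribosome assembly. GNL3, also called nucleostemin, and its vertebrate relative GNL3L move between nucleolus and nucleoplasm, are abundant in dividing cells and bind the telomere protein TRF1 and the ubiquitin ligase MDM2. GNL2 belongs to the pre-60S particles that leave the nucleolus. LSG1 acts in the cytoplasm, where it frees the export adaptor NMD3 from the large subunit, so the group is not nucleolar as a whole. GNL1 is encoded in the MHC class I region and its function is less well known. MicroRNAs pair through a seed at their 5′ end with sites that lie mostly in the 3′ ends of mRNAs and lower the amount of those mRNAs or of their protein.

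The mature sequences of the transfected microRNA and of relatives with the same seed are shown because the seed defines which mRNAs a microRNA can pair with. They are from RefSeq (GRCh38.p14), 5′ to 3′, with bases 2 to 8 in capitals. The MIR424 hairpin gives hsa-miR-424-5p (chrX:134546680-134546701, minus strand) and hsa-miR-424-3p (chrX:134546644-134546664, minus strand), and the labels do not say which arm the precursor was designed to deliver.
hsa-miR-424-5p: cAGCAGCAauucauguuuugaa
hsa-miR-15a-5p: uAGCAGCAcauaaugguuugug
hsa-miR-16-5p: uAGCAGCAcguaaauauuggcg
hsa-miR-195-5p: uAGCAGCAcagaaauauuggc
hsa-miR-497-5p: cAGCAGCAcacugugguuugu
hsa-miR-424-3p: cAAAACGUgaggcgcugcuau
Among 2370 mature microRNAs in the table, 7 had the seed AGCAGCA of hsa-miR-424-5p, whereas hsa-miR-424-3p had AAAACGU. The DNA letters that pair with the first seed are TGCTGCT. Transcript and probe sequences were not analysed here, so whether a member holds this site, and where its probes lie, is not given. No probe on the arrays was assigned to MIR424, and the amount of miR-424 itself was not measured.

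The signals of GNL3L (NM_019067) differed visibly before any normalization. At its probe A_23_P22499, the median spot signal was 3718 in control RNA (Cy3, local background 26) and 1118 in pre-miR-424 RNA (Cy5, background 66) on the normal array. On the dye swap it was 6303 in control RNA (Cy5, background 65.5) and 611 in pre-miR-424 RNA (Cy3, background 24). Control RNA gave the higher signal in either dye, although Cy5 was the brighter channel on both arrays, with a median signal over all spots of 290 against 189 on the normal array and 314 against 165 on the swap.

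At the other GNL3L probe, A_24_P100351, the signals on the normal array were close, with 2158.5 in control RNA (Cy3) and 2311.5 in pre-miR-424 RNA (Cy5). On the swap they were 3687 in control RNA (Cy5) and 1158 in pre-miR-424 RNA (Cy3). The control signal of this probe was thus below that of A_23_P22499 on both arrays and the pre-miR-424 signal above it, but levels of different probes depend on the probe and are not compared further.

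**Figure D1:**
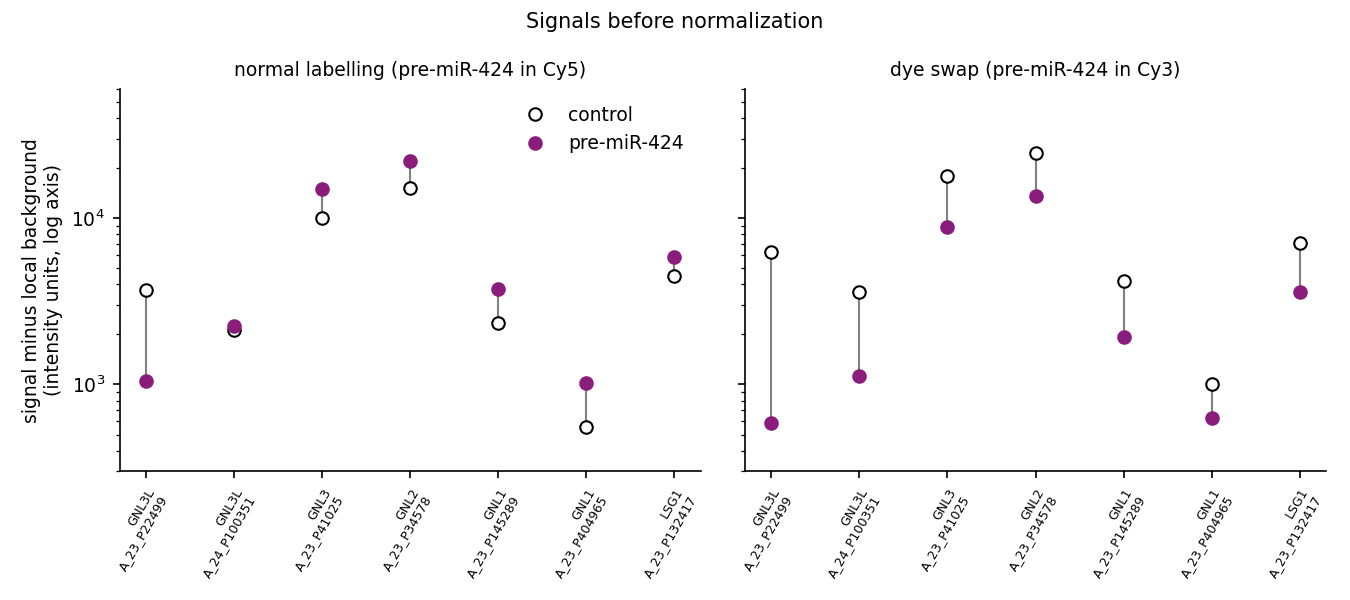
Signal minus local background (intensity units, log axis) of the 7 probes on the normal array and the dye swap, with control RNA as open circles, pre-miR-424 RNA as filled circles and a line joining the pair of each probe (the GNL3 probe is the mean of its 2 spots). Only at GNL3L A_23_P22499 was control RNA the brighter one under both labellings, with 3692 against 1052 and 6237.5 against 587.

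After background correction and loess normalization, A_23_P22499 had log2 ratios of pre-miR-424 over control of −2.32 (normal array) and −2.38 (dye swap, sign turned), with a mean of −2.35 ± 0.039 (SD), which corresponds to 19.6% of the control level, or a 5.09-fold lower level. Its difference between the arrays was 0.055 on the log2 scale, against a median of 0.194 over all 25664 measured probes, and 85.0% of the measured probes had a larger one. No measured probe had a lower mean ratio, which follows from the way the group was chosen, and the next lowest mean was −2.33, at a non-coding RNA probe on chromosome 11. This was the 1 of 7 member probes that fell by at least 2-fold on both arrays. Over all measured probes, 22 passed this rule (0.0857%) and 14 passed it in the other direction (0.0546%).

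A_24_P100351 had ratios of −0.49 and −0.70 (mean −0.60 ± 0.15, SD), or 66.2% of the control level. It did not pass the 2-fold threshold on either array, and at 1.5-fold it passed on the swap only. Its mean was nevertheless below that of most of the array, with 196 of 25664 measured probes lower, that is 0.764%. Both GNL3L probes were lower with pre-miR-424 on both arrays, and both are assigned by the array design to the same transcript.

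**Figure D2:**
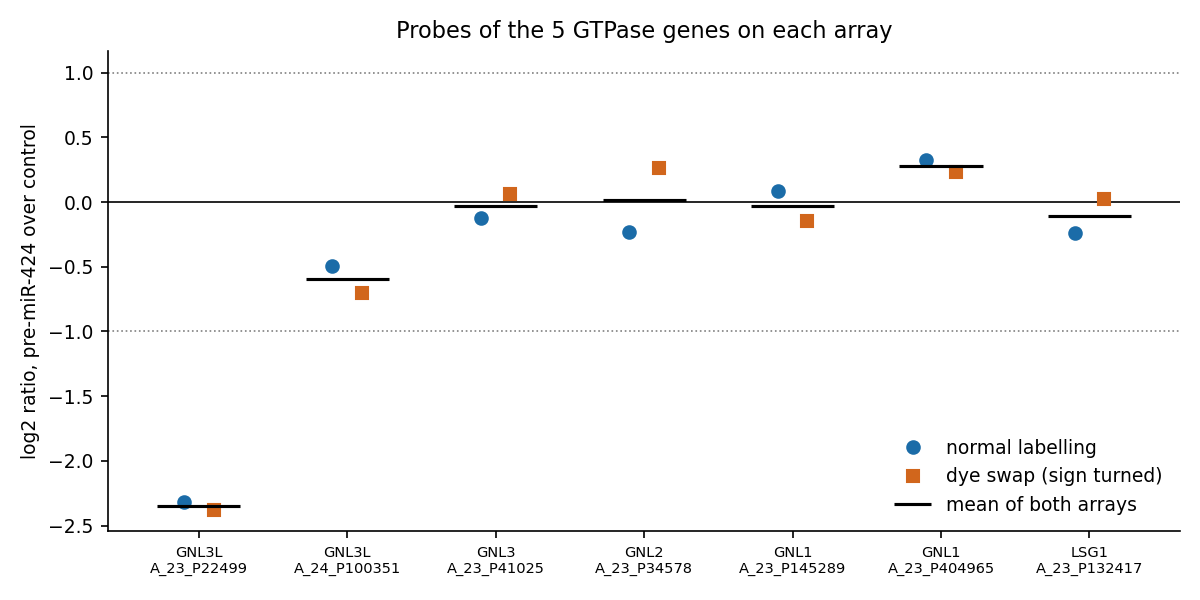
Log2 ratio of pre-miR-424 over control for each probe on the normal array (circles) and on the dye swap with its sign turned (squares), with the mean of both arrays as a bar and dotted lines at 2-fold. GNL3L A_23_P22499 lies near −2.35 on both arrays and A_24_P100351 at −0.49 and −0.70, while the probes of GNL3, GNL2 and LSG1 and the brighter probe of GNL1 have opposite signs on the arrays.

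How unusual such a disagreement between probes was could be read from the other genes with several probes. In 3361 genes with at least 2 measured probes, the highest minus the lowest mean log2 ratio among the probes of a gene had a median of 0.098 and a 95th percentile of 0.40. For GNL3L this spread was 1.75, the largest of all, and the next largest was 1.35. A spread of at least 1 was found in 6 genes (0.179%). As the group was chosen by one of these ratios, the position of GNL3L carries no test. The difference between the GNL3L probes exceeded the difference of either probe between the arrays, which was 0.055 and 0.208. In a comparison by gene, each gene was represented by the probe with the highest mean log2 level over both RNAs. For GNL3L this was A_24_P100351 (11.07, against 10.97 for A_23_P22499), and the gene did not pass 2-fold. This level includes the pre-miR-424 RNA, so a fall lowers the rank of a probe. In control RNA alone A_23_P22499 gave the higher signal on both arrays.

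**Figure D3:**
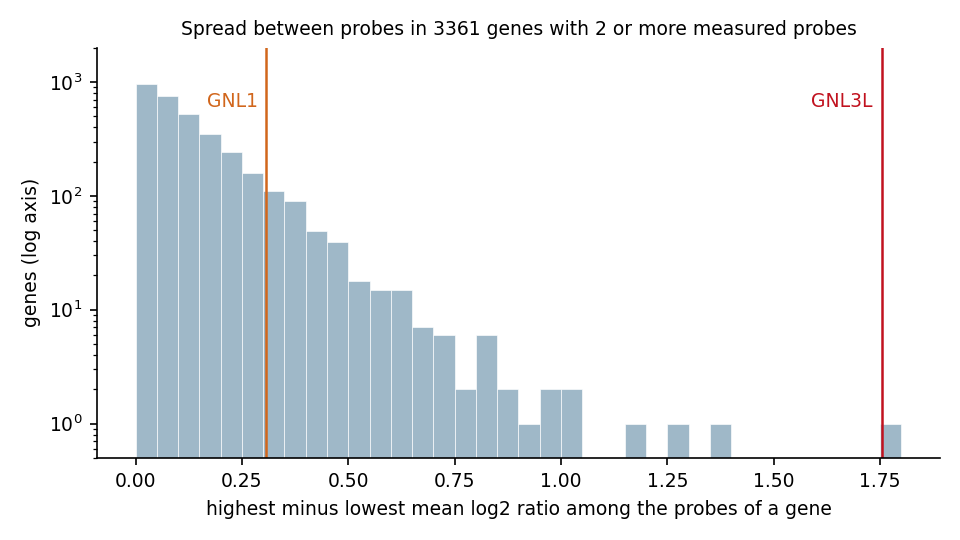
Histogram of the highest minus the lowest mean log2 ratio (pre-miR-424 over control) among the measured probes of a gene, for 3361 genes with 2 or more of them, with the number of genes on a log axis. The line for GNL3L stands at 1.75, to the right of every other gene, and that for GNL1 at 0.31, where 10.4% of the genes have a larger spread.

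GNL3 (NM_014366), the closest relative of GNL3L, was measured by A_23_P41025 in 2 spots on each array. On the normal array its control signals were 9718 and 10440 (Cy3) and its pre-miR-424 signals 14807 and 15421.5 (Cy5). On the swap the control signals were 17379 and 18617 (Cy5) and the pre-miR-424 signals 8278 and 9605 (Cy3). In each pair the channel with Cy5 was the brighter one. The spots had normalized log2 ratios of −0.10 and −0.15 on the normal array and of 0.00058 and 0.13 on the swap. Averaged, the probe gave −0.12 and 0.065 (mean −0.029 ± 0.13, SD), a mean smaller in size than the SD between the arrays.

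GNL2 (NM_013285), measured by A_23_P34578, had signals of 15211 in control RNA (Cy3) and 22114.5 in pre-miR-424 RNA (Cy5) on the normal array. On the swap they were 24804 (control, Cy5) and 13585 (pre-miR-424, Cy3). The log2 ratios were −0.23 and 0.26 (mean 0.017 ± 0.35, SD). Their difference of 0.49 was the largest among the members, and 9.39% of all measured probes had a larger one.

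LSG1 (NM_018385), measured by A_23_P132417, had signals of 4506 in control RNA (Cy3) and 5904 in pre-miR-424 RNA (Cy5) on the normal array, and of 7172.5 (control, Cy5) and 3637 (pre-miR-424, Cy3) on the swap. Its log2 ratios were −0.24 and 0.026 (mean −0.11 ± 0.19, SD). The means of GNL2 and LSG1 were thus smaller in size than the SD between the arrays, which includes any dye effect of the probe. Ratios within each dye, in which that effect drops out, are given below.

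GNL1 (NM_005275) had a pair of probes. At the brighter, A_23_P145289, the signals were 2364.5 in control RNA (Cy3) and 3801 in pre-miR-424 RNA (Cy5) on the normal array, and 4269 (control, Cy5) and 1956 (pre-miR-424, Cy3) on the swap, with log2 ratios of 0.086 and −0.14 (mean −0.029 ± 0.16, SD). At the dimmer, A_23_P404965, they were 576 (control, Cy3) and 1082 (pre-miR-424, Cy5) on the normal array, and 1069.5 (control, Cy5) and 652.5 (pre-miR-424, Cy3) on the swap. This probe had ratios of 0.32 and 0.24 (mean 0.28 ± 0.061, SD), or 121% of the control level, and was the 1 member probe with a ratio above 0 on each array of the pair. Among the measured probes, 5.43% had a higher mean. The spread between the GNL1 probes was 0.31.

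Of the 7 member probes, 2 were lower on both arrays, 1 was higher on both and 4 had opposite signs. Over all measured probes, 26.4% were lower on both arrays and 25% were higher on both, and neither share of the members is read as a result. The median of the mean log2 ratios was −0.029 for the members and −0.0073 for all measured probes.

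**Figure D4:**
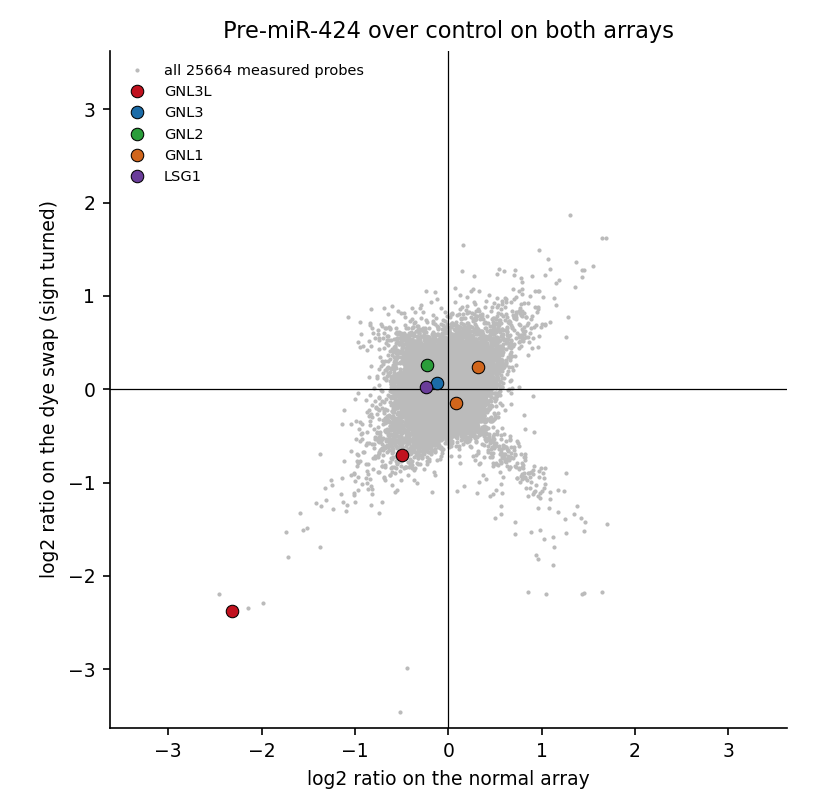
Log2 ratio of pre-miR-424 over control on the normal array against that on the dye swap with its sign turned, for 25664 measured probes (grey) and the 7 member probes (coloured by gene). GNL3L A_23_P22499 lies at −2.32 and −2.38 beside the 3 lincRNA probes nearest to it, and the 4 member probes with opposite signs on the arrays lie inside the central cloud.

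Since the same RNAs were read in both dyes, each dye also allows a comparison between the arrays, in which a dye effect of the probe drops out and differences between the arrays enter. Computed from background-subtracted signals and centred on the median of all measured probes, A_23_P22499 of GNL3L had log2 ratios of −2.40 within Cy5 and −2.44 within Cy3, and A_24_P100351 had −0.52 and −0.70. For GNL2 the values were 0.0016 and 0.047, so that the 0.49 between its ratios shrank to 0.045. LSG1 had −0.12 and −0.10, both below 0. GNL3 had −0.085 and 0.034, the brighter GNL1 probe −0.0012 and −0.067, and the dimmer 0.18 and 0.40. This comparison was added after the data had been seen. The mean of its 2 values combines the same signals as the mean of both arrays, so that mean is no independent check.

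Next, the 5 probes of other genes with the pair of ratios nearest to that of A_23_P22499 were taken, by Euclidean distance over the 2 arrays. All were lower on both arrays, which follows from their nearness to this probe and is not a result. The nearest, at a distance of 0.17, was a probe of a long intergenic non-coding RNA (lincRNA) region on chromosome 1 (hg19, 181309852 to 181429627), with −2.15 and −2.35. The following were both probes of a lincRNA region on chromosome 11 (hg19, 121962085 to 122073559), with −2.46 and −2.19 and with −1.98 and −2.29, at distances of 0.23 and 0.35. A probe of PDP2 (NM_020786), a pyruvate dehydrogenase phosphatase, had −1.72 and −1.80 at a distance of 0.84. A probe of LPP (NM_005578), a focal adhesion protein, had −1.74 and −1.53 at a distance of 1.03. With 2 technical arrays this is a likeness of size alone.

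The other genes of the pathway were taken from 6 lists drawn up from general knowledge, with each gene represented by its brightest measured probe. By gene, 0.029% of 13812 genes passed 2-fold lower on both arrays and 0.0724% passed 2-fold higher, and 26.7% were lower and 26.8% higher on both arrays at any size. The median log2 ratio of all genes was −0.0042. In none of the lists did a gene pass 2-fold in either direction, so the following are values that did not reach the threshold.

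All 16 further GTPases were measured, among them MTG1, a mitochondrial GTPase of the YlqF type. Several of the 16 assemble ribosomes in the nucleus or in mitochondria, while others act elsewhere. Of them, 6 were lower and 1 was higher on both arrays, with a median of −0.072. The lowest was ERAL1, which assembles the small subunit of the mitochondrial ribosome, with −0.38 and −0.63, followed by EFTUD2, a spliceosomal GTPase, with −0.33 and −0.22. EFL1, the cytoplasmic GTPase that releases eIF6 from the large subunit, had −0.18 and −0.19 at its brightest probe, while another gave −0.24 and 0.16. BMS1, of the small subunit processome, had 0.044 and 0.049 at its brightest probe, but its other 4 measured probes had means between −0.35 and −0.19, so its direction depended on the probe, and BMS1 has near-identical pseudogene copies that make its values uncertain.

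Large subunit assembly factors, the proteins that work beside GNL2, GNL3 and LSG1, showed no common direction. Of 35 genes 33 were measured, 7 were lower and 6 higher on both arrays, and the median was 0.010. The lowest was NMD3, the export adaptor that LSG1 frees, with −0.69 and −0.61. It was followed by ZNF622, which also acts on late cytoplasmic pre-60S particles, with −0.66 and −0.35, and by PA2G4 with −0.22 and −0.32, where another probe had −0.36 and 0.17. The highest was TMA16 with 0.90 and 0.79, whose mean of 0.84 was the largest in size of any listed ribosome assembly gene. Among genes with a ratio above 0 on each array, NOP16 (0.19 and 0.16) and NIFK (0.045 and 0.23) came next. NOC3L and MAK16 were not measured.

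Among genes of the small subunit processome, 37 of 39 were measured, with 8 lower and 4 higher on both arrays and a median of −0.023. DDX52, an RNA helicase, was the lowest with −0.66 and −0.23, followed by HEATR1 (−0.27 and −0.27) and UTP20 (−0.21 and −0.23). Among genes with a ratio above 0 on each array, the highest were RRP36 (0.33 and 0.020), IMP3 (0.089 and 0.19) and IMP4 (0.043 and 0.15). Each of these genes had 1 measured probe. NOB1 was not measured, and no probe was matched to RIOK1.

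All 17 snoRNP and abundant nucleolar proteins were measured, with 6 lower and 2 higher on both arrays and a median of −0.063. MKI67, the Ki-67 protein of cycling cells, had −0.26 and −0.18 at its brightest probe and means of −0.41 and −0.29 at the other two. DKC1, the pseudouridine synthase of box H/ACA snoRNPs, had −0.15 and −0.26, and the helicase DDX21 had −0.070 and −0.29. NOP14 (0.17 and 0.0030) and NHP2 (0.046 and 0.094) were the 2 higher ones, and another NOP14 probe had a mean of −0.22.

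Of the 15 genes of RNA polymerase I and its initiation factors, all measured, 5 were lower and 3 higher on both arrays, with a median of −0.017. The largest subunit, POLR1A, had −0.17 and −0.21, POLR1F had −0.23 and −0.12, and TAF1B had −0.24 and −0.0027. The 3 genes higher on both arrays were TAF1A with 0.21 and 0.22 (−0.24 and 0.61 at its other probe), POLR1H (0.078 and 0.089) and TAF1C (0.060 and 0.060).

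**Figure D5:**
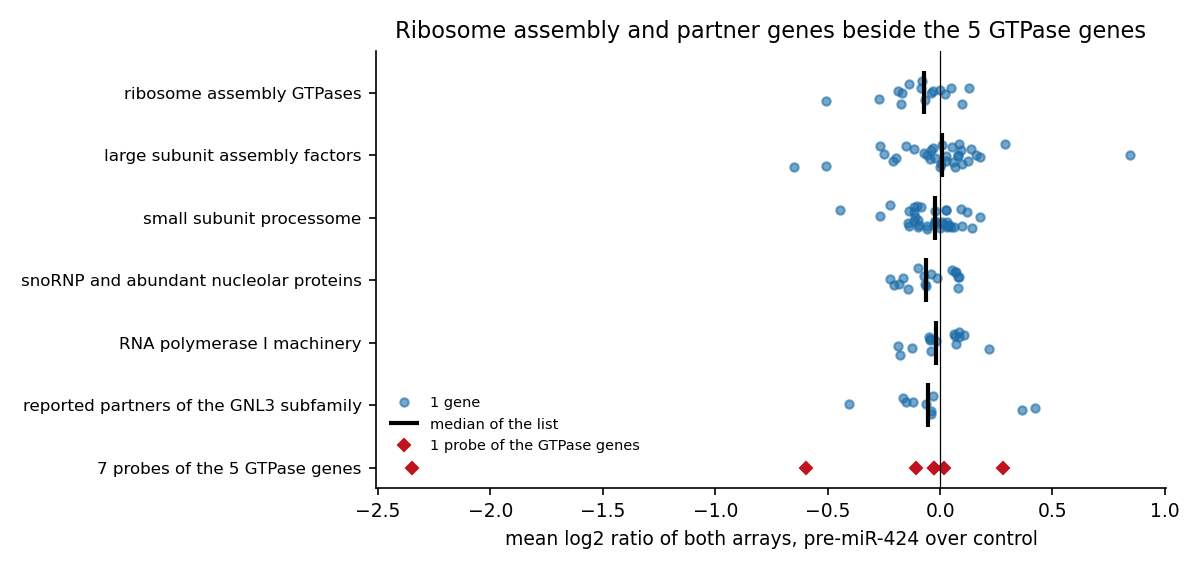
Mean log2 ratio of both arrays (pre-miR-424 over control) for each measured gene of the 6 lists (circles, brightest probe; vertical position within a row is random) with the median of each list as a bar, and for the 7 member probes (diamonds). The list medians lie between −0.072 and 0.010, and no listed gene lies near the −2.35 of GNL3L A_23_P22499.

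The 10 genes reported in the literature as partners of GNL3 or GNL3L were all measured, with 2 lower and 2 higher on both arrays and a median of −0.053. The medians of the single arrays opposed each other, with 0.16 (normal array) and −0.35 (swap). TERF1, which encodes TRF1, had 0.15 and 0.59 at its brightest probe, and its other 3 probes had means of 0.080, 0.29 and 0.26. MDM2 had 0.25 and 0.59, with a mean of 0.16 at its other probe. ESRRG, an orphan nuclear receptor, had −0.26 and −0.55, and TERF2 had −0.29 and −0.017.

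Further partners had opposite signs on the arrays at their brightest probes. PML had 0.083 and −0.14, with 0.031 and −0.20 and with −0.10 and −0.11 at its other probes. CDKN2A had 0.14 and −0.39, with −0.12 and −0.18 at another CDKN2A probe. The very abundant mRNAs of the ribosomal proteins RPL5 (0.56 and −0.64) and RPL11 (0.65 and −0.74) and of nucleophosmin, NPM1 (0.56 and −0.89), had the largest opposed ratios. In each of these the Cy5 channel was the higher one relative to the other probes, although a further RPL5 probe had −0.18 and 0.12, and the means were close to 0 for RPL5 (−0.039) and RPL11 (−0.041) and −0.16 for NPM1. These genes have processed pseudogenes with near-identical sequence, so their values are uncertain.

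The labelled cell type was checked by detection. Of 15 epithelial genes, which included basal markers such as KRT5, KRT14 and TP63 but also KRT8, KRT18, CDH1 and EPCAM, which are not particular to basal cells, all 15 had a probe above background in both RNAs on the whole pair of arrays. A probe was detected for 4 of 9 fibroblast and muscle markers and for 4 of 8 blood and endothelial markers. Because both RNAs of each array are of the same line and a log2 ratio sums over all cells, fewer cells of a kind and less RNA per cell cannot be told apart.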

How the data were processed

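RNAs of RWPE-1 cells that received a miR-424 precursor or a control oligonucleotide (30 nM) were hybridised to 2 Agilent 2-colour arrays, a dye-swap pair that counted as 1 replicate. The members and gene lists were chosen with earlier results of these data known.

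The scanner files deposited by the authors hold median spot and local background intensity per channel, not normalized, the log10 ratio of Cy5 over Cy3 and flags set by the scanner software (Agilent Feature Extraction 10.7.3.1, per the file headers). The deposited value table holds log2 ratios of unstated steps and direction. Set against the present values, both columns proved to be Cy5 over Cy3, without a change of sign for the swapped array (Pearson correlations of 0.991 and 0.988 over 42405 probes, column medians of 0.024 and 0.036). All its columns belonged to these arrays. The submitters' processing notes name limma.

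Here, normexp (offset 50) was fitted on all spots, control spots were dropped, and loess was applied within each array (limma 3.58.1, R 4.3.3). The offset draws the ratios of dim probes towards 0. Spots of a probe were averaged. A probe was measured when the scanner software called it well above background for Cy3 and Cy5 on each array and no spot an outlier, as was the case for 25664 of 42405, and no spot was saturated. Accessions were matched without versions to RefSeq symbols (GRCh38.p14), with 25771 of 27134 (95.0%) matched. Since the arrays were designed on hg19, no gene coordinates of that table are given. The genes named were every probe of the members, the 5 nearest probes, all partners, and in each other list the genes past 2-fold and the 3 lowest and 3 highest of equal sign on both arrays. The steps were also run on simulated data with known changes (Python 3.11.15, pandas 2.3.3, numpy 2.4.6). These changes were placed in brighter probes only and were smaller than the fall at A_23_P22499. The outcome is not given here. Alternatives varied the offset, background correction, centring, filter, threshold, source of the ratios and the arrays used. The values of some listed genes are not reported here.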

Additional observations from a re-analysis of the deposited data

How the results depend on the processing

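The direction of both GNL3L probes and of the dimmer GNL1 probe was the same under all 11 alternatives run for them. The ranges were −2.50 to −2.32, −0.70 to −0.49 and 0.22 to 0.32. Not all of the 11 were able to change a member ratio. Alternatives of the filter on dim or outlying spots left these ratios as they were, and the deposited ratios nearly repeated them. The single arrays are the values that were averaged. The mean of the comparison within dyes combines the same signals as the mean of both arrays. It can differ from that mean only through background correction and normalization, so it is no independent check. GNL3, LSG1 and the brighter GNL1 probe changed sign on 1 of 11, a single array. GNL2 was below 0 on 3 of 11, with −0.23 on the normal array alone, −0.036 with median centring and −0.0045 with the scanner software's ratios. A_23_P22499 of GNL3L had a mean of −2.40 with an offset of 16, −2.41 with median centring, −2.50 with the scanner software's ratios and −2.42 with the comparison within dyes, which was chosen after seeing the data. The GNL3L spread was 1.88 with the scanner software's ratios. One member probe passed 2-fold under every alternative, 1.5-fold included. All probes past the threshold numbered 67 with the scanner software's ratios and 218 at 1.5-fold, against 36. The second follows from the threshold, and what caused the former was not tested. With 1 array the number of probes past 2-fold ranged from 86 to 133, and the member probes lower on the array were 5 (normal array) and 3 (swap), against 2 on both. Over single arrays the means ranged from −2.38 to −2.32 for A_23_P22499, and the medians from −0.19 to −0.045 for the further GTPases and from −0.12 to −0.055 for the snoRNP list. With median centring, the measured probes had medians of 0.10 (normal array) and −0.18 (swap). The median of their mean ratios was −0.039, against −0.0073 with loess, so the measured probes as a whole also lay lower. In this setting the list medians were −0.083 for the small subunit processome and −0.11 for the snoRNP list. The medians of the large subunit, processome, RNA polymerase I and partner lists each changed sign under at least 1 alternative. No paired analysis was possible because the design has 1 comparison, with its groups already paired within each array. Precision is limited throughout by there being 2 arrays.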
